A study of Schizosaccharomyces pombe with 6 samples.

Results

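In fission yeast (Schizosaccharomyces pombe) treated with hydroxyurea, 91 broad stretches of chromosome gave a higher Rad52 chromatin immunoprecipitation (ChIP) signal when the checkpoint gene rad3 was deleted. A domain here is a run of at least 4 adjoining 1 kb bins, each measured by at least 2 probes. In each bin the mean log2 ratio of immunoprecipitate over input had to be at least 0.5 higher in rad3-deleted cells than in cdc25-22 cells, with all 3 rad3-deleted arrays above all 3 cdc25-22 arrays. The search covered chrI:150001-3700000, chrII:150001-4350000 and chrIII:150001-2370000. Of the 9634 measured bins there, 979 (10.2%) passed both limits. These formed 414 runs, of which 91, holding 464 bins, were 4 bins or longer. The other 323 runs were 1 to 3 bins long and held 515 bins. Because the difference between the strains chose the domains, their number, length and difference are descriptions and carry no test.

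Rad52 ChIP was hybridised against its own input on 6 two-colour genome tiling arrays, 3 for each strain. The rad3-deleted cells were ∆rad3 cdc25-22, and the cells they were set against were cdc25-22 with rad3 present, which their titles call WT. Both strains therefore carried cdc25-22, a temperature-sensitive allele of the phosphatase that lets cells enter mitosis. Per the labels, both were synchronised by a block of 4 h at 36.5 °C, and hydroxyurea at 6 mM was added after the shift back to 25 °C. No array carried a control immunoprecipitate, so Rad52 enrichment within a strain cannot be told apart from unspecific enrichment, and more cells with Rad52 at a site cannot be told apart from more Rad52 per cell. The labels do not say whether the 3 arrays of a strain came from separate cultures. The input was in the red and the immunoprecipitate in the green channel on all 6 arrays, per the labels. The series text speaks of reciprocal labelling, which the labels do not bear out, so the direction of every ratio rests on the labels.

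Which scanner file belongs to which strain is itself a choice here. The scanner files of replicates 1 and 2 were exchanged between the strains. With this exchange, 5 of the 6 columns of the deposited value table equal the scanner file of the same strain and replicate on all 42641 probes. The rad3-deleted replicate 3 column is among the 5 and equals its file without the exchange as well. Sequence inside rad3 bears on the exchange directly. With it, 9, 10 and 9 of 33 rad3 probes were not well above background in either channel of the rad3-deleted arrays, against 0, 0 and 0 in the cdc25-22 arrays. With files placed as listed, the same limits gave 0 domains. Every value below is conditional on the exchange, apart from those read from the value table.

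Rad52 acts on single-stranded DNA and is needed for nearly all homologous recombination in yeasts. Its ChIP signal reports association with DNA, and whether recombination took place in the domains was not measured. Rad3, the fission yeast ATR kinase, senses single-stranded DNA at stalled forks and, through the kinase Cds1, keeps stalled forks intact and late origins from firing. Hydroxyurea starves replication of deoxynucleotides and stalls forks close to the origins that fired. Fission yeast origins have no strict consensus; they lie mostly in long intergenic regions rich in A+T, where the AT-hook domain of the Orc4 subunit binds asymmetric runs of A or T.

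Sequence from 5 domains is shown because these are the 4 longest and the 1 with the highest single bin, and because the sequence was not used to choose them. Each is the most A+T-rich 300-base window, outside annotated protein-coding genes, of the bin with the largest difference (the peak bin) in that domain. They are read from the plus strand of ASM294v3 and named by the genes on either side. Capitals mark runs of at least 6 A (AAAAAA) or at least 6 T (TTTTTT), the same search as AAAAAA on both strands; the runs do not overlap.
pcs2/hsr1 (chrI:1957001-1957300): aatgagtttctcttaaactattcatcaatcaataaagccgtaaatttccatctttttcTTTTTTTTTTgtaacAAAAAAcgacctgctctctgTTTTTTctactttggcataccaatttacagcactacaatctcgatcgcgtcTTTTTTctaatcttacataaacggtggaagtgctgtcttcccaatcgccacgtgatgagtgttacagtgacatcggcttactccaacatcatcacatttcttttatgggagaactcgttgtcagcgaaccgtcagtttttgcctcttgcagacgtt
pmc1/vma5 (chrI:2720184-2720483): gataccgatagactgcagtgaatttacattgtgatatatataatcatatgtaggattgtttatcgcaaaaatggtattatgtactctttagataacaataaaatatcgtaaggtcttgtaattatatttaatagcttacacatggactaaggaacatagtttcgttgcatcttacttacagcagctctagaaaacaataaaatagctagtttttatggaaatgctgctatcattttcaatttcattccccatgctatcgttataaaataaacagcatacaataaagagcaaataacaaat
duf8901/SPAC806.06C (chrI:243629-243928): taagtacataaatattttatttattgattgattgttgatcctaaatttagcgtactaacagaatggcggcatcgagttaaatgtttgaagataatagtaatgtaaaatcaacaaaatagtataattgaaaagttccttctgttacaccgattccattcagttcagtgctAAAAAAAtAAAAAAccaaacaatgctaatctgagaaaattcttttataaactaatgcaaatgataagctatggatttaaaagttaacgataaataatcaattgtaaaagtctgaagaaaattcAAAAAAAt
fbp1/wwm3 (chrII:200566-200865): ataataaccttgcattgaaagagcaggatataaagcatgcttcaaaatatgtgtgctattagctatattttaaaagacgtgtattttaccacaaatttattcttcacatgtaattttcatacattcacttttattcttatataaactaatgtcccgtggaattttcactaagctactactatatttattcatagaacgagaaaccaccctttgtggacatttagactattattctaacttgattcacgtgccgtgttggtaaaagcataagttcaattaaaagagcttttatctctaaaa
mug147/SPBC56F2.05C (chrII:4106615-4106914): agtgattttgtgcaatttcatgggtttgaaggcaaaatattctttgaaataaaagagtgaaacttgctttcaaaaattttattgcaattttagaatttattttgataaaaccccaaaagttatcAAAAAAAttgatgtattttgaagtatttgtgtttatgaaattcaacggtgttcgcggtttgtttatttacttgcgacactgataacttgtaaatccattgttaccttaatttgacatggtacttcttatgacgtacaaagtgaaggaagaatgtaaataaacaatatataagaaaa

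The windows held 61.7%, 71.0%, 74.7%, 70.3% and 72.7% A+T in the order printed, and 4, 0, 3, 0 and 1 marked runs. The longest run, in the pcs2/hsr1 window, had 10 bases. Such a run was also present in 55.0% of all 33233 windows of the same length in the searched ranges, so a match is no sign of a site. Over whole 1 kb bins, 96.3% of the 464 domain bins and 98.9% of the 91 peak bins held a run, against 90.4% of all 9634 bins. The median number of runs was 4 in domain bins and 5 in peak bins, against 3 in all bins.

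The domains were moderate in height and short. Of the 91, 44 were 4 kb long, 18 were 5 kb, 14 were 6 kb, 11 were 7 kb, 1 was 8 kb, 1 was 9 kb and 2 were 10 kb. The strain difference of a domain, averaged over its bins, had a lowest value of 0.59, a median of 1.01 and a highest value of 2.05 on the log2 scale. The difference in the peak bin had a lowest value of 0.65, a median of 1.37 and a highest value of 2.60. A difference of 1 means a ratio of immunoprecipitate over input 2.0 times as high, so at the median domain the ratio was about doubled. In 80 of 91 domains the peak bin was an inner bin of the run, and in 11 it was the first or the last.

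Nearly all domains were above the array median in rad3-deleted cells and close to it in cdc25-22 cells, as the plot of every domain on every array shows. The median over the 91 domains was 0.73, 1.01 and 1.21 on rad3-deleted replicates 1, 2 and 3, against -0.07, -0.06 and -0.06 on cdc25-22 replicates 1, 2 and 3. On the rad3-deleted arrays single domains ranged between 0.28 and 2.01, between 0.54 and 1.94, and between 0.51 and 2.29. On the cdc25-22 arrays they ranged between -0.36 and 0.85, between -0.42 and 1.05, and between -0.45 and 1.15. The cdc25-22 mean was below 0 in 70 of 91 domains and at or below 0.2 in 89. All 3 rad3-deleted arrays reached at least 0.5 in 71 domains and at least 1 in 19.

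**Figure D1:**
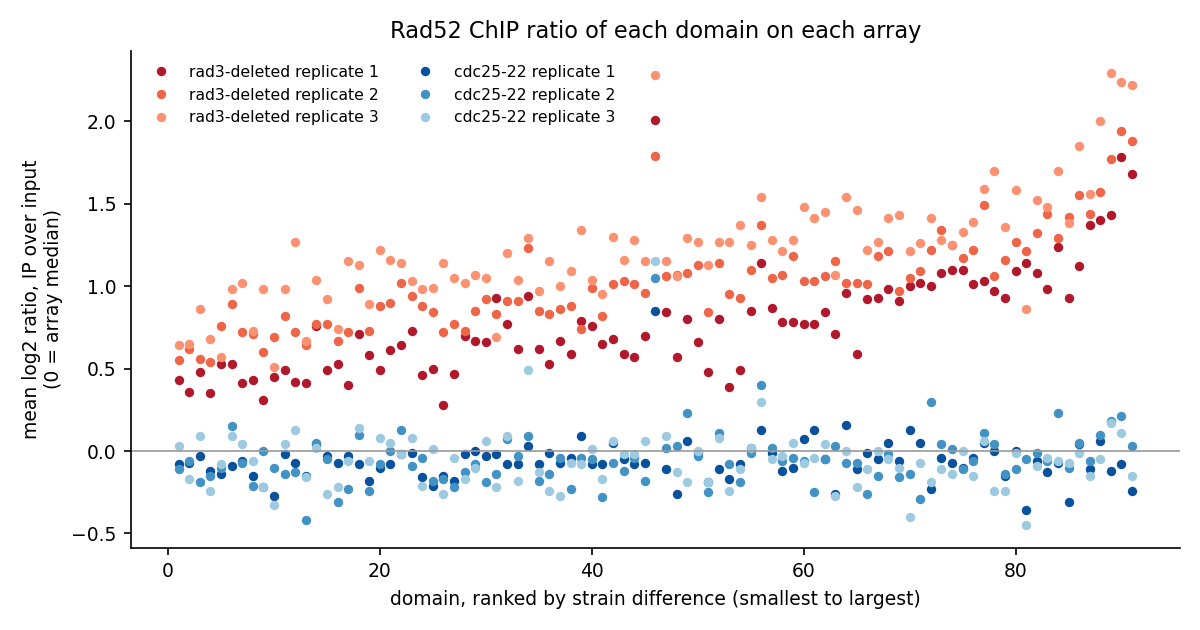
Mean log2 ratio of immunoprecipitate over input of each of the 91 domains (y axis, 0 is the array median) on each of the 6 arrays, with the domains ordered on the x axis by strain difference. Red points are rad3-deleted arrays and blue points cdc25-22 arrays; the 1 domain with cdc25-22 values of 0.85, 1.05 and 1.15 is the centromere II run, and the others lie near 0 in cdc25-22 cells.

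The 3 rad3-deleted arrays ranked the domains much alike but differed in height. Across the 91 domains, Pearson's r between rad3-deleted arrays was 0.90 (replicates 1 and 2), 0.81 (1 and 3) and 0.87 (2 and 3), as a description, since the domains share their libraries. Among the cdc25-22 arrays it was 0.50 (replicates 1 and 2), 0.64 (1 and 3) and 0.60 (2 and 3). Without the centromere II run it was 0.90, 0.78 and 0.85 among the rad3-deleted arrays and 0.10, 0.33 and 0.30 among the cdc25-22 arrays, in the same order. Replicate 1 was the lowest rad3-deleted array in 87 domains and replicate 3 the highest in 82. The spread of all probes moved the same way: the median absolute deviation was 0.262, 0.318 and 0.401 on rad3-deleted replicates 1, 2 and 3, against 0.161, 0.261 and 0.287 on cdc25-22 replicates 1, 2 and 3. Its part in the height of the domains was not tested. With each array divided by it, 77 domains met the limits. The arrays of replicate 3 also had a ChIP protocol, and those of replicates 1 and 2 a CGH one, per the file headers. The part of the protocol in the height was not tested either.

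The member bin with the lowest difference lay in the pmc1/vma5 domain, at chrI:2723001-2724000, and had a difference of 0.5024. Its values were 0.49, 0.66 and 0.41 on rad3-deleted arrays, against 0.02, -0.02 and 0.06 on cdc25-22 arrays. Just outside the limit, the bin at chrI:3059001-3060000 differed by 0.4996, with 0.19, 0.29 and 0.64 on rad3-deleted arrays, against -0.06, -0.34 and 0.03 on cdc25-22 arrays. Of the 182 ends of the domains, 159 fell at a bin with a difference under 0.5, 18 at a bin where only the overlap of the arrays failed, and 5 at a bin that was not measured. Both bins near the limit had all rad3-deleted arrays above all cdc25-22 arrays, and no gap in the measured values separates them.

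The fit across all 11905 bins tested gives the level against which such bins are read. limma with Benjamini-Hochberg adjustment called 1454 bins higher in rad3-deleted cells (12.2%) and 455 lower (3.82%). Quantile normalization between arrays gave 1220 higher and 630 lower. The lower count was unstable: it was 860 with the slide as a block, 911 without rad3-deleted replicate 1 and 114 without cdc25-22 replicate 1, and leaving out any single array moved it by over 1.5 times. Of the 464 domain bins, 455 were among those called higher, and the highest adjusted p of the other 9 was 0.084. With the slide as a block, the same fit called 1745 bins higher (14.7%) and all 464 domain bins. The domains were chosen on this contrast, so nothing is read from their count.

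The choice of the 91 domains used all 3 slides. A choice made on 2 slides leaves the difference on the other slide unused, although the slides may not hold separate cultures. Each slide carried 1 array of each strain, so domains were chosen again by the same limits on 2 slides and then read on the other, with 1 array per strain and therefore no test. With slide 1 left out, 113 domains were chosen, and all 113 were higher on slide 1 in rad3-deleted cells than in cdc25-22 cells. Their median was 0.62 on the rad3-deleted array, against -0.06 on the cdc25-22 array. A difference of at least 0.5 was reached by 88 of the 113 (77.9%), against 6.366% of 9190 windows of 4 measured bins on that slide. The windows take in the domains as well, and all are 4 bins long, whereas domains can be longer.

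The other slides gave larger differences. With slide 2 left out, 91 of 91 domains were higher there in rad3-deleted cells, and 89 (97.8%) reached 0.5, against 10.141% of windows. The medians were 0.96 on the rad3-deleted array and -0.04 on the cdc25-22 array. With slide 3 left out, 80 of 80 were higher, and 79 (98.8%) reached 0.5, against 12.96% of windows, with medians of 1.2 on the rad3-deleted array and -0.05 on the cdc25-22 array. The lowest single difference on the slide left out was 0.11, 0.34 and 0.45 on slides 1, 2 and 3, so no chosen domain turned its sign.

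**Figure D2:**
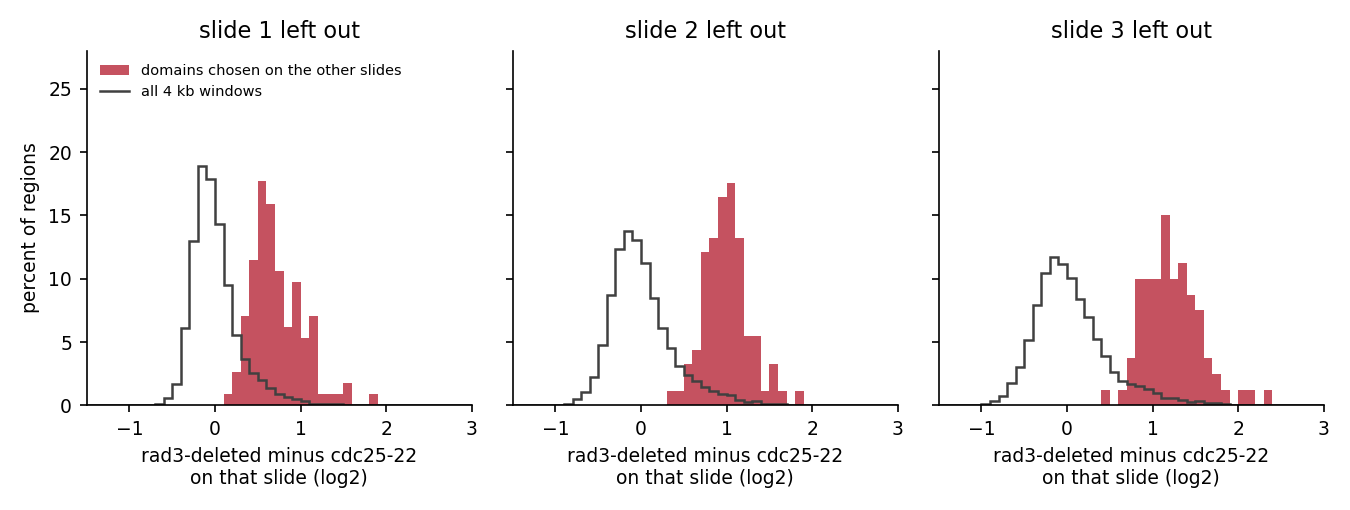
Strain difference (x axis, log2, rad3-deleted minus cdc25-22) on a slide that was not used to choose the domains, as percent of regions (y axis). Filled bars are domains chosen on the other slides (113, 91 and 80) and the line is all 9190 windows of 4 kb; the domains lie to the right of the peak of all windows on each slide, with medians of 0.68, 0.99 and 1.19.

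Domains were spread over all 3 chromosomes at unequal density. Chromosome I held 39 in 3.55 Mb searched (11 per Mb), chromosome II 40 in 4.2 Mb (9.5 per Mb) and chromosome III 12 in 2.22 Mb (5.4 per Mb). The domains covered 4.65% of the searched ranges. The median gap between neighbours was 54.5 kb on chromosome I, 53.0 kb on chromosome II and 67.0 kb on chromosome III. Long stretches held none: 432 kb between chrII:455000 and chrII:887001, 472 kb between chrIII:1042000 and chrIII:1514001, and the first 567 kb searched on chromosome III. Part of the 472 kb stretch was thinly probed. The segment chrIII:1050001-1100000 had 75 probes, and the 50 kb after it had under 50. At the other end, 9 pairs of neighbours lay 10 kb or less apart, and 2 pairs were parted by a single bin. These were chrI:1289001-1293000 and chrI:1294001-1298000, with a difference of 0.42 in the bin between them, and chrIII:2275001-2279000 and chrIII:2280001-2284000, with 0.34.

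The domain with the highest bin ran from mug147, whose name marks transcripts upregulated in meiosis, to SPBC56F2.05C, at chrII:4105001-4112000. Averaged over its 7 bins, it had 1.78, 1.94 and 2.24 on rad3-deleted arrays, against -0.08, 0.21 and 0.11 on cdc25-22 arrays. Its peak bin, chrII:4106001-4107000, lies in the divergent intergenic region between these genes and averaged 2.92 ± 0.68 in rad3-deleted cells and 0.32 ± 0.37 in cdc25-22 cells (SD, n = 3 each), the highest bin difference of any domain, 2.60. The plot of 5 domains along their length shows 2 maxima here, the other 3 kb from the peak bin. The domain also holds a glutamate tRNA gene, SPBTRNAGLU.08, at chrII:4107639-4107710. Its left end was set by a bin that was not measured, and the next one out, chrII:4103001-4104000, met both limits with a difference of 0.98.

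The largest mean difference, 2.05, belonged to the 4 kb domain at chrI:440001-444000 in the region of mre11, which encodes the nuclease of the MRN complex that processes DNA ends, and fep1, a repressor of iron uptake genes. It had 1.68, 1.88 and 2.22 on rad3-deleted arrays, against -0.24, 0.03 and -0.15 on cdc25-22 arrays. Its peak bin was the first bin of the run and averaged 2.60 ± 0.54 in rad3-deleted cells and 0.09 ± 0.07 in cdc25-22 cells (SD, n = 3 each). The bin just before the run was not measured. The next one out, chrI:438001-439000, met both limits with a difference of 0.92. The left end and the 4 kb length were therefore set by a bin without measurement. The most A+T-rich 500-base window, 77.2% A+T, lay 250 bp from the centre of that bin. The domain covers part of fep1 and no part of mre11.

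The longest domains were 10 kb. One ran at chrI:1949001-1959000 from pcs2, a subunit of the monopolin complex at kinetochores, into hsr1, a stress-response transcription factor. It had 1.40, 1.57 and 2.0 on rad3-deleted arrays, against 0.06, 0.10 and -0.05 on cdc25-22 arrays, a difference of 1.62. Its peak bin, by difference, lay next to its right end, 3900 bp from the most A+T-rich window. There cdc25-22 replicate 3 was at -0.88, against -0.1 and -0.05 on replicates 1 and 2. The bin chrI:1955001-1956000 was higher in rad3-deleted cells, at 2.01, 2.21 and 2.94, against a mean of 1.97 in the peak bin. Its difference was 2.22. On rad3-deleted arrays the signal rose from 0.45, 0.21 and 0.44 in the first bin. At the right end it fell from 1.4, 2.11 and 2.04 in the last bin to 0.44, 0.28 and 0.15 in the next bin. The other, at chrI:2717001-2727000, held vma5, a subunit of the vacuolar proton pump, and reached from pmc1, a calcium pump gene, to cch1, a calcium channel gene. It was lower, at 0.61, 0.90 and 1.16 on rad3-deleted arrays, against -0.08, -0.00 and 0.05 on cdc25-22 arrays.

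**Figure D3:**
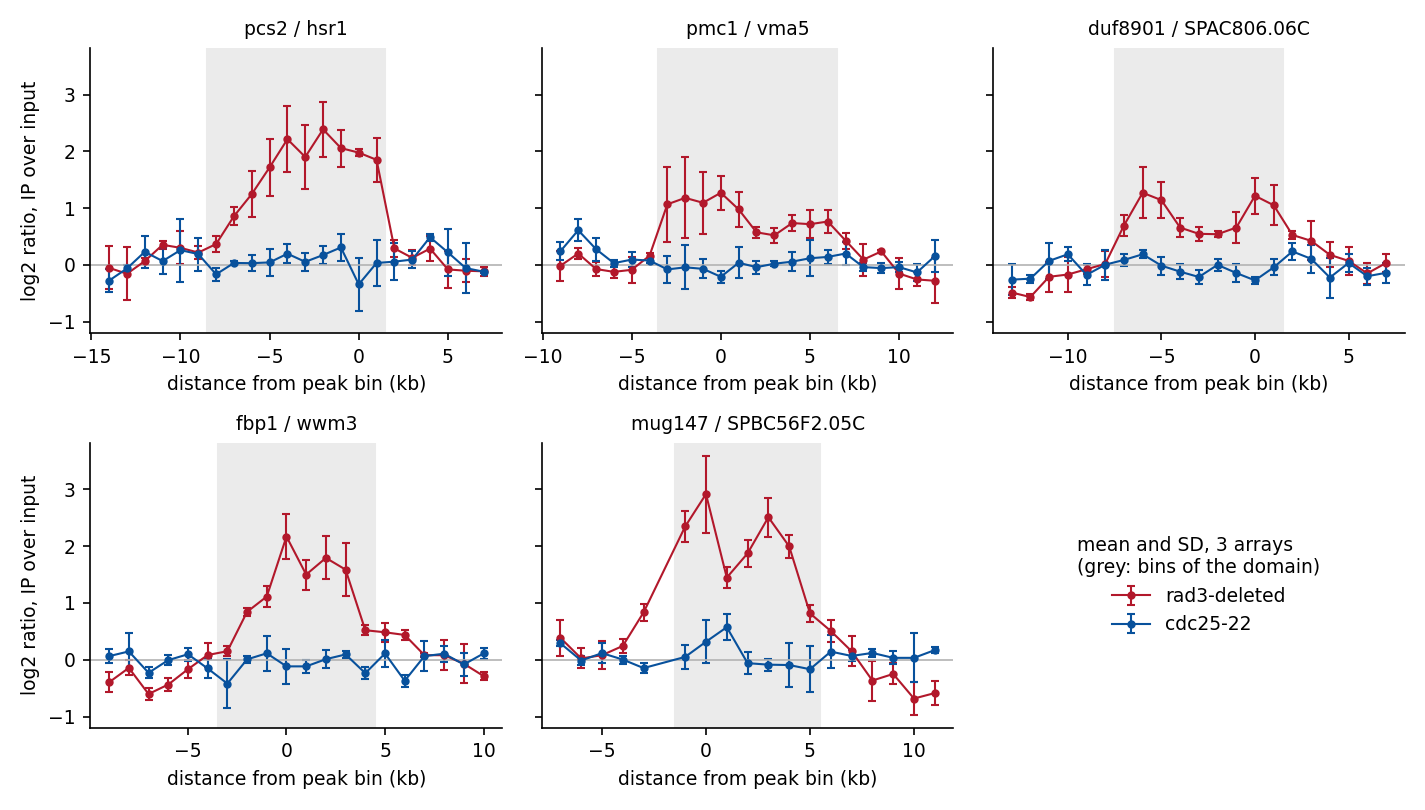
Mean log2 ratio of immunoprecipitate over input (y axis, error bars SD, n = 3 arrays) in 1 kb bins along 5 domains, by distance from the peak bin in kb (x axis), with rad3-deleted cells in red, cdc25-22 cells in blue and the bins of the domain in grey. Peak bins average 1.97, 1.27, 1.22, 2.17 and 2.92 in rad3-deleted cells and -0.34, -0.21, -0.27, -0.12 and 0.32 in cdc25-22 cells, in the order of the panels.

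The 9 kb domain at chrI:236001-245000 had 2 maxima, and its peak bin lay between duf8901 and SPAC806.06C. It had 0.67, 0.85 and 1.07 on rad3-deleted arrays, against 0.00, -0.08 and -0.10 on cdc25-22 arrays. The 8 kb domain at chrII:197001-205000 peaked in the divergent region between fbp1, the glucose-repressed fructose-1,6-bisphosphatase gene, and wwm3. There the values over the domain were 1.01, 1.22 and 1.39 on rad3-deleted arrays, against -0.04, -0.06 and -0.15 on cdc25-22 arrays, and the peak bin differed by 2.28. In both, every rad3-deleted array was above 0.6 while the cdc25-22 arrays stayed within 0.15 of the array median.

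The longest domain on chromosome III, chrIII:1932001-1939000, peaked between ssp2, the catalytic subunit of AMP-activated kinase, and SPCC74.04. It had 0.93, 1.42 and 1.38 on rad3-deleted arrays, against -0.31, -0.10 and -0.07 on cdc25-22 arrays. The most A+T-rich 500-base window of this domain held 72.4% A+T, and no AT-rich island overlapped the domain. Here replicate 2, not replicate 3, was the highest rad3-deleted array.

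Of the remaining domains among the 10 highest by peak bin, chrI:1664001-1668000 had the largest mean. Its most A+T-rich window lies between msc1, a multicopy suppressor of the loss of the checkpoint kinase Chk1, and SPAC343.21, and its peak bin overlaps SPAC343.21. It had 1.43, 1.77 and 2.29 on rad3-deleted arrays, against -0.12, 0.18 and 0.17 on cdc25-22 arrays. The other 4 were at tup11, a transcriptional co-repressor gene (chrI:300001-305000, peak bin difference 2.08), over fap2 and ssd2 (chrI:1024001-1030000, 2.05), over pmp3 (chrII:887001-893000, 2.22) and at rcr1 (chrII:2827001-2832000, 2.25). In these 4 the rad3-deleted mean over the domain was 1.2 ± 0.09, 1.51 ± 0.37, 1.31 ± 0.22 and 1.46 ± 0.09, against -0.07 ± 0.08, 0.03 ± 0.03, -0.05 ± 0.04 and -0.10 ± 0.05 in cdc25-22 cells (SD, n = 3 each).

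In all, 11 domains were 7 kb long, and ties among the 10 longest were settled by the larger strain difference, which kept 6 of them, 4 not yet described. The first, chrI:647001-654000, covers csk1, a kinase that activates cyclin-dependent kinases, and pis1, the phosphatidylinositol synthase gene. The second, chrI:763001-770000, lies beside puf5, a Pumilio-type RNA-binding protein gene. The third, chrI:1890001-1897000, covers arv1 and sdh2, which encodes the iron-sulphur subunit of succinate dehydrogenase. The fourth, chrI:2519001-2526000, reaches from gpa2, a G-protein subunit of glucose sensing, to jmj1. Their rad3-deleted means were 1.05 ± 0.15, 1.13 ± 0.18, 1.2 ± 0.22 and 1.15 ± 0.21, against -0.13 ± 0.13, -0.07 ± 0.08, -0.01 ± 0.05 and -0.18 ± 0.05 in cdc25-22 cells (SD, n = 3 each). The csk1 domain also covers rtf2, which encodes a replication termination factor.

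One domain was high in both strains over its whole length, and another in its peak bin. The 7 kb run at chrII:1621001-1628000, inside the stretch without protein-coding genes between rpb1 and yox1 that holds centromere II, had 2.01, 1.79 and 2.28 on rad3-deleted arrays, against 0.85, 1.05 and 1.15 on cdc25-22 arrays. The next highest cdc25-22 mean of any domain was 0.28. Input was low here on every array, at -0.94, -0.68 and -0.53 in rad3-deleted cells and -1.09, -0.62 and -0.59 in cdc25-22 cells (log2 processed signal relative to the array median). Fission yeast centromeres contain repeats, and whether probes in this run match more than 1 copy was not checked. The other 90 domains had cdc25-22 means between -0.29 and 0.28. The highest of them, chrIII:2307001-2312000, peaked in the bin chrIII:2308001-2309000, which holds the 5S rRNA gene SPRRNA.07. That bin had 1.89, 2.28 and 2.92 on rad3-deleted arrays, against 0.77, 1.04 and 1.31 on cdc25-22 arrays. Dispersed 5S genes are near-identical copies, so probes there can report more than 1 gene. In the other 89 domains the cdc25-22 mean of the peak bin was at most 0.32.

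On 2 lists of genes that act in recombination, the checkpoint or replication, 1 gene each overlapped a domain. Genes outside the lists, such as rtf2 in the csk1 domain, are not counted here. A list of 35 recombination and checkpoint genes had 26 members in the searched ranges, and 1 of them (3.8%) overlapped a domain, against 246 of all 4105 protein-coding genes (6.0%). This was nbs1, the MRN subunit that recruits the ATM kinase, at chrII:2648577-2650977, of whose 3 bins 2 belonged to the domain chrII:2646001-2650000. Over the gene the ratio was 0.48 ± 0.18 in rad3-deleted cells and -0.09 ± 0.17 in cdc25-22 cells (SD, n = 3 each). Of 51 origin-firing and replisome genes, 42 were in the ranges and 1 (2.4%) overlapped a domain: hsk1, the catalytic subunit of the DDK kinase that fires origins, at chrII:3197060-3199201. Both counts are 1, so nothing is read from the shares. The ratio over hsk1 was 1.28 ± 0.33 in rad3-deleted cells and 0.16 ± 0.08 in cdc25-22 cells (SD, n = 3 each).

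The domains held a larger share of sequence outside protein-coding genes than the ranges as a whole, although most of their bases lay inside genes. Of the bases in domains, 45.2% were outside protein-coding genes, against 21.5% of the searched ranges. Peak bins did so more: a median of 72% of their bases was outside protein-coding genes, against 1.0% over all bins, and 31 of 91 peak bins (34.1%) held no protein-coding sequence at all, against 504 of 9634 bins (5.2%). Annotation here includes untranslated parts of transcripts. Only 8 peak bins (8.8%) lay wholly inside genes, against 49.0% of all bins.

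Long intergenic regions between divergent genes, where both transcripts run away from the region, were the most often covered. Of 98 divergent regions of 2 kb or longer, 24 (24.5%) had their centre in a domain, as had 9 of 66 tandem regions of that length (13.6%) and 0 of 9 convergent ones. Over intergenic regions of any length the shares were 7.1% of 1012 divergent, 4.3% of 1712 tandem and 2.4% of 416 convergent regions. Length and orientation go together, with median lengths of 778, 324 and 153 bp, so the shares by orientation over all lengths also carry the length.

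Few short RNA genes lay in domains. Of 148 tRNA genes 3 (2.0%) overlapped one, as did 2 of 31 dispersed 5S rRNA genes, 2 of 57 snoRNA genes (snR5 and sno20) and 6 of 154 long terminal repeats of retrotransposons, which lay in 3 domains. Each figure is close to or below the 4.65% of the ranges that domains cover, or rests on 2 genes. lncRNA genes overlapped domains in 399 of 5621 cases (7.1%).

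A+T content was highest in the peak bins. The median A+T share was 67.6% in peak bins and 65.5% in all domain bins, against 64% in all bins of the ranges. The share of bins that belonged to a domain was 2.4% among bins under 60% A+T, 5.2% among those of 64 to 66%, 12.9% among those of 70 to 72% and 31.8% (7 of 22) among those of 74% or more. In the same classes the median ratio over all bins was -0.11, -0.01, 0.28 and 0.81 in rad3-deleted cells, and 0.05, -0.02, -0.03 and -0.07 in cdc25-22 cells. The A+T-rich classes were thus high in rad3-deleted cells and near the array median in cdc25-22 cells.

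AT-rich islands, merged 500-base windows of at least 75% A+T, mark many fission yeast origins. Of the 91 domains, 52 (57.1%) overlapped at least 1 island, in whole or in part, whereas 12.9% of all 4 kb windows and 15.5% of all 5 kb windows held one. No such share was counted for longer windows, although 29 domains were 6 kb or longer. The most A+T-rich window of a domain lay within 1 kb of the centre of the peak bin in 66 of 91 domains, and at a median of 650 bp. No level over other regions was counted for this distance, and 62 of the 91 domains were only 4 to 5 kb long. This window lay in an intergenic region in 77 of 91 domains (84.6%), of which 46 were divergent, 27 tandem and 4 convergent. A+T-rich sequence is mostly intergenic in any case. Of all 294 islands in the ranges, 42.9% were divergent, 36.4% tandem, 10.5% convergent and only 10.2% inside genes. Domains with an island had a median difference of 1.04 and a median length of 5.0 kb, and the 39 without one had 0.95 and 4.0 kb. Across the 91 domains the A+T share of the richest window and the peak difference had a Pearson's r of 0.35 and a Spearman's rho of 0.37, as a description over regions that share all 6 libraries.

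Most islands were not in a domain. Of 294 islands in the ranges, 57 (19.4%) lay in a domain, 73 (24.8%) in a passing run of 1 to 3 bins, 152 (51.7%) in no passing bin and 12 were not measured. The 3 measured classes had nearly the same A+T share, with medians of 74.9%, 75.1% and 75%, and similar lengths, with medians of 700, 750 and 650 bp. Their median ratio was 1.2, 0.66 and 0.03 in rad3-deleted cells, and -0.06, -0.08 and -0.05 in cdc25-22 cells. The rule divided the classes by the strain difference, so the first values follow from it, whereas the A+T shares and lengths do not. Of islands between divergent genes 25.4% lay in a domain, of tandem ones 16.8%, of convergent ones 6.5% and of those inside genes 16.7%.

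Centred on the most A+T-rich window, the signal of rad3-deleted cells fell off on both sides over about 4 kb. The domains were chosen for a high difference and end where the limits fail. Their height and the fall beside them therefore follow in part from the rule. It averaged 1.34 ± 0.41 at the centre, 0.68 ± 0.20 at 2 kb to the left, 0.82 ± 0.08 at 2 kb to the right, 0.29 ± 0.10 at 4 kb to the left and 0.24 ± 0.06 at 4 kb to the right (SD, n = 3 arrays). The cdc25-22 cells averaged -0.00 ± 0.14 at the centre and 0.00 ± 0.06 and -0.01 ± 0.03 at 2 kb to the left and right. At 10 kb the rad3-deleted cells were at 0.00 ± 0.01 to the left and 0.05 ± 0.03 to the right. Around all measured islands, which the rule did not choose, rad3-deleted cells averaged 0.58 ± 0.28 at the centre (SD, n = 3 arrays). At 2 kb they averaged 0.23 ± 0.08 to the left and 0.32 ± 0.03 to the right. The cdc25-22 cells averaged 0.00 ± 0.14 at the centre of these islands, and 0.03 ± 0.10 and 0.05 ± 0.02 at 2 kb to the left and right. At the centre of islands in no passing bin the ratio was 0.12 ± 0.16 in rad3-deleted cells and 0.02 ± 0.15 in cdc25-22 cells (SD, n = 3 arrays); these islands were set apart by the limits on the strain difference, so nothing is read from that.

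**Figure D4:**
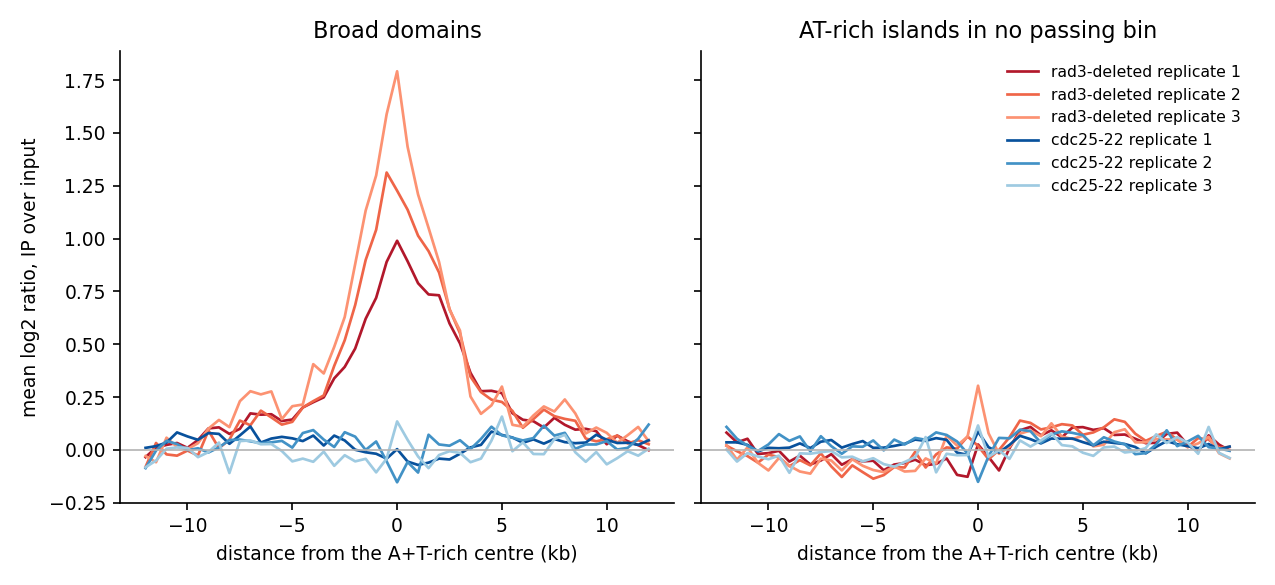
Mean log2 ratio of immunoprecipitate over input (y axis) in 500 bp steps by distance from the A+T-rich centre in kb (x axis), 1 line per array. Left, the 91 domains, which were chosen by the strain difference. There the rad3-deleted arrays stand at 0.99, 1.23 and 1.79 at the centre, replicate 2 reaches 1.31 at 0.5 kb to its left, and the cdc25-22 arrays stay near 0. Right, AT-rich islands in no passing bin, which were set apart by failing the limits on the strain difference.

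Both channels of the arrays enter the ratio, and both were higher in rad3-deleted cells at most domains. Immunoprecipitate, as log2 processed signal relative to the array median, was higher in rad3-deleted cells in all 91 domains, by a lowest value of 0.57, a median of 1.23 and a highest value of 2.54. In 87 of 91 domains the immunoprecipitate of all 3 rad3-deleted arrays was above that of all 3 cdc25-22 arrays, against 13.0% of single 1 kb bins. The counts for immunoprecipitate follow in large part from the limits on the ratio, of which it is the numerator, so nothing is read from them. Input DNA was also higher in rad3-deleted cells in 79 domains, with a difference between -0.19 and 0.64 and a median of 0.19, against a median of -0.03 over all bins. In 41 of 91 domains the input of all 3 rad3-deleted arrays was above that of all 3 cdc25-22 arrays, against 2.3% of single 1 kb bins, and in 0 it was below. For both channels the domain counts use means over at least 4 bins, so they are not like for like with the shares of single bins.

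The higher input lowers the ratio in rad3-deleted cells. It was seen on each slide, with median input differences of 0.23, 0.14 and 0.23 on slides 1, 2 and 3 and 82, 67 and 84 of 91 domains above 0. Over all bins the medians were -0.02, -0.09 and -0.04. Domains with more input also had a larger difference of the ratio, with r = 0.52 and rho = 0.53 across the 91 domains as a description, although input is the divisor of that ratio. The input difference had a median of 0.30 in domains with an island and 0.13 in those without, and 0.30 in domains of 6 kb or longer and 0.15 in shorter ones. In no domain was the input difference larger in size than the immunoprecipitate difference. Where input was higher, this order follows from the limit of 0.5 on the ratio, so nothing is read from it. The cause of the input difference was not tested.

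**Figure D5:**
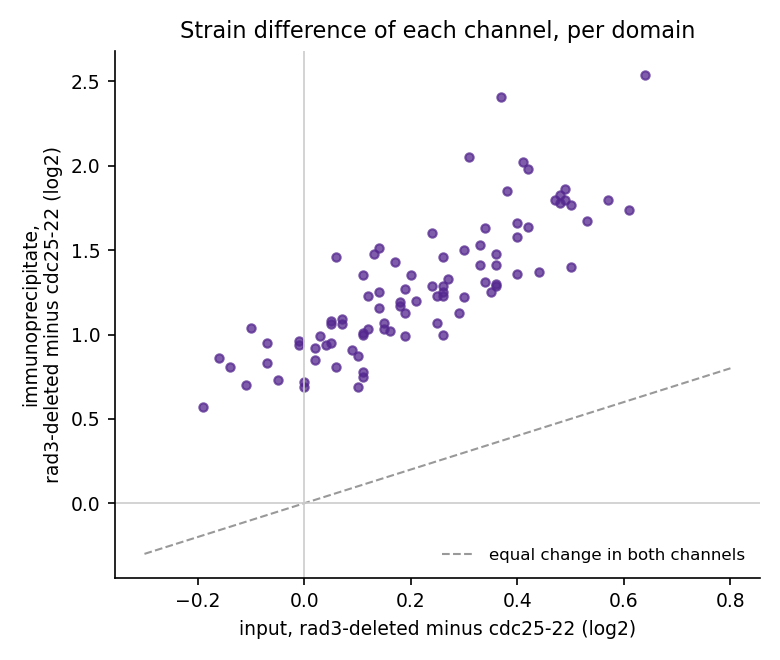
Strain difference (rad3-deleted minus cdc25-22, mean of 3 arrays each, log2) of the immunoprecipitate (y axis) against that of the input (x axis), 1 point per domain. All 91 points lie above the dashed line of equal change, which the limit on the ratio difference fixed in advance. Input differences run between -0.19 and 0.64 and immunoprecipitate differences between 0.57 and 2.54.

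Probes in the domains were bright on most arrays. Of the 1641 domain probes, 99.8%, 89.3% and 99.8% were well above background in both channels on rad3-deleted replicates 1, 2 and 3, against 99.5%, 97.3% and 99.3% on cdc25-22 replicates 1, 2 and 3. The lowest share, on rad3-deleted replicate 2, was above the 84.9% of all probes of the ranges on that array.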

How the data were processed

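Rad52 immunoprecipitate and input were measured on 6 two-colour arrays, 3 per strain. The deposited scanner files hold spot intensity values, background-subtracted and dye-corrected per the file headers (a CGH protocol on slides 1 and 2, a ChIP one on slide 3), made with Agilent Feature Extraction 10.7.3.1 per the submitters' processing notes. In the value table the authors deposited, each entry is a linear ratio, immunoprecipitate divided by input; scale and direction were found by setting it against the scanner files within a tolerance of 0.001 log2. No scanner file equals its column for the third cdc25-22 replicate.

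Green over red processed signal was taken as log2, without control and outlier spots, centred on each array's median over 42641 probes, and averaged in 1 kb bins. limma 3.58.1 (R 4.3.3) was fitted to all bins with Benjamini-Hochberg adjustment at 0.05; the rest used Python 3.11.15 with numpy 2.4.6, pandas 2.3.3 and matplotlib 3.10.9. Scripts were tested on simulated data. The number of arrays limits the precision. Median signals were 584 to 1211 (immunoprecipitate) and 561 to 845 (input), over backgrounds of 38 to 72.

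Same-numbered arrays of both strains shared a slide, and their deviations correlated at 0.278, 0.197 and 0.173, so the numbers pair the samples. The header names an older genome version than ASM294v3; by the spread of probe G+C share alone, with no probe sequence aligned, positions in both coincided in 188 of 198 segments of 50 kb in the searched ranges and were 1 bp apart in the other 10. The 2 segments with under 50 probes, 1 of which holds the centromere II run, were not checked. Gene names and sequences are RefSeq's; 34 of 35 and 47 of 51 listed symbols matched.

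The domains and gene lists were chosen with earlier results of these data known. Domains named are the 10 longest (ties by mean difference), the 10 with the highest bin, those holding a listed gene and, chosen after their values were seen, the centromere II run and the domain at SPRRNA.07. Keeping sequence windows outside genes was decided after the files were read. The normexp alternative used median spot signals, since the files hold no mean ones. The chromosome ends, including chromosome I beyond the range given, were not searched.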

Additional observations from a re-analysis of the deposited data

Results flagged for a closer look

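The value table's column for cdc25-22 replicate 3, which equals no scanner file and did not enter the choice of domains, stood above background in them. Its median over the 91 domains was 0.28 (log2, centred on its median), against -0.02 over all bins in the ranges, and single domains ranged between -0.76 and 1.12. It was above all 3 cdc25-22 scanner arrays in 75 of 91 domains and reached the lowest rad3-deleted array in 8. Across probes it correlated more with rad3-deleted replicate 3 (r = 0.515) than with the scanner file listed as cdc25-22 replicate 3 (r = 0.397).

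Runs of 4 or more passing bins also lay outside the searched ranges, which leave out the chromosome ends. There were 41 of them, 28 on chromosome I, 11 on chromosome II and 2 on chromosome III, over 313 kb in all. They are not counted among the 91 domains.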

How the results depend on the processing

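Against 91 domains and 464 kb, files placed as listed gave 0 domains and 0 kb, with 0 bins called higher by limma (128 at an unadjusted p under 0.05) against 1454. The value table gave 58 domains, 300 kb and 938 bins called higher (83 lower), and shared 57.5% of the kilobases. Other limits gave 45 domains and 220 kb (difference of 0.75), 146 domains (runs of 3), 29 domains and 198 kb (runs of 6), 41 domains and 207.5 kb (500 bp bins), 708 kb (2 kb bins), and 60 domains and 290 kb (3 probes per bin). Quantile normalization gave 297 kb. Dividing each array by its median absolute deviation gave 77 domains and 377 kb, and removing the A+T trend, an alternative chosen after seeing the data, gave 93 domains and 475 kb, of which 449 kb were shared. The replicate block gave 99 domains, 523 kb and 1745 called bins; it called all 464 domain bins, against 455 without it, and 860 bins lower, against 455. Leaving out each array in turn gave 77 to 115 domains, 408 to 601 kb and 1000 to 1765 bins called higher, and 114 to 911 called lower, against 455; the difference on the slide left out was 0.68 to 1.19. The A+T share kept within 65.4% to 65.6% in the 5 alternatives run for it. Signal over background limits rad3-deleted replicate 2 most, where 84.9% of input probes were well above background.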
